A study of Papaver somniferum with 9 samples.

Results

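The 150 unigenes described here are the most abundant of those that were expressed at a high level in root, stem and leaf alike of opium poppy (Papaver somniferum). They were chosen from the 61856 unigenes of the expression table by their measured values: all 9 samples had to be at or above 100 RPKM, which 578 unigenes met, and the 150 with the highest mean over the 9 samples were kept. The samples came from plants of the cultivar B1, grown in 1 experimental plot and taken at the filling stage, with 3 replicates each of root, stem and leaf. The study sampled a part of the root below ground, a piece from the middle of the stem, and the top leaf. All 3 organs thus share cultivar, stage and plot, and the study calls its replicates independent samples without saying how many plants each held. P-values below set a difference between organs against the spread between replicates, estimated from all 9 samples unless stated otherwise. The leaf replicates thus also enter the spread used for root against stem.

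RPKM scales the reads of a unigene to its length and to the mapped reads of the sample, so a level can be compared between unigenes of different length. It is a relative unit: a transcript that takes more of the reads in an organ leaves less for all others. In plant organs, a small number of transcripts usually takes a large part of the messenger RNA pool. In green tissue these are known to include transcripts for photosynthetic proteins, while transcripts for translation, the cytoskeleton and protein turnover are commonly abundant in all organs. None of the unigene IDs was found in the RefSeq gene table at hand (0 matched), and the expression table pairs no ID with a gene name. The members are therefore given by ID, with no function, and the labelled organs were not checked against marker genes. In whole organs, fewer cells of a type and less RNA per cell cannot be told apart.

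The study lists a lower RNA integrity number for every leaf sample than for any root or stem sample, so leaf and lower RNA integrity cannot be told apart in any comparison below. Summed over all unigenes, RPKM was lowest in root replicate 2, at 898884, and highest in stem replicate 3, at 1092540. Every root sample had a lower sum than every stem and leaf sample. No read counts come with the values, so no counting interval can be given.

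The mean over the 9 samples, which set the order of the members, ran from 534.6 RPKM at rank 150 to 51619 RPKM at rank 1, with a median of 820.3 RPKM. It was under 1000 RPKM in 97 members and over 5000 RPKM in 7. Just inside the limit of the list, PB.59630.1 at rank 150 had a mean of 534.6 RPKM, and just outside it PB.54282.6 had 532.9 RPKM. The lowest single value of a member was 103.3 RPKM, in leaf replicate 1 for PB.60690.1. The unigene nearest under the minimum, PB.55680.3, missed it with 99.98 RPKM in leaf replicate 2. A lowest value under 200 RPKM was found in 22 of the 150 members. These values chose the members and are given as a description only.

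The 150 members are 0.242% of all unigenes, and they held between 20.4% and 28.8% of the summed RPKM of a sample. In root replicates 1, 2 and 3 the share was 27.5%, 20.4% and 22.2%. The 3 stem samples had 28.8%, 27.6% and 25.3%, and the 3 leaf samples 22.4%, 22.3% and 21.2%. Averaged by organ, root had 23.4% ± 3.71, stem 27.2% ± 1.77 and leaf 22.0% ± 0.624 (mean ± SD, n = 3). All 3 stem samples lay above all 3 leaf samples, by 5.28 percentage points of the mean. Root overlapped with both other organs, and root replicate 1 alone placed root above leaf in the mean: without it the root mean was 21.3%. These shares sum over members chosen on the same values, so no p-value is given for them. They are ratios within a sample and do not change when a sample is scaled.

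**Figure D1:**
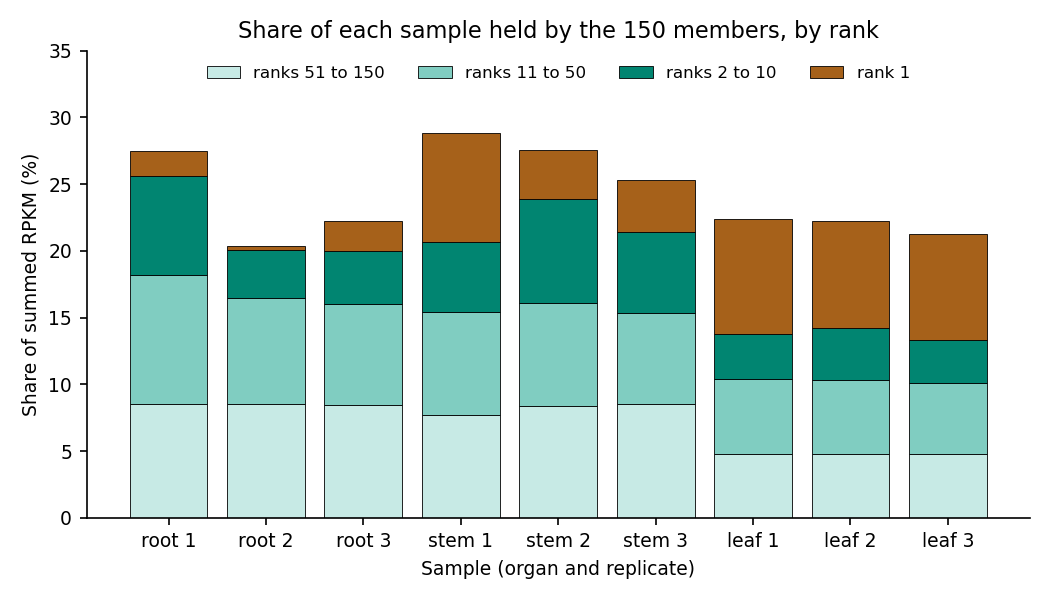
Share of the summed RPKM of each of the 9 samples (vertical axis, percent) held by the 150 members, stacked by rank of the mean over all samples. The brown top piece, the single highest member, grows from 0.280% to 2.18% in the root samples to between 7.90% and 8.62% in the leaf samples, while the palest piece, ranks 51 to 150, is near 4.76% in leaf and at least 7.67% in every root and stem sample.

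The make-up of these totals differed between the organs. The highest member, PB.225.272, had 18130 RPKM, 2518 RPKM and 20522 RPKM in root replicates 1, 2 and 3. The 3 stem samples had 78589.8 RPKM, 39639.7 RPKM and 42224 RPKM, and the 3 leaf samples 89803 RPKM, 87017 RPKM and 86123 RPKM. Every stem sample was above every root sample and every leaf sample above every stem sample, and root replicate 2 was far below the other root samples. This single unigene made up 37.3% ± 1.16 of what the 150 members held in leaf, 18.9% ± 8.05 in stem and 6.01% ± 4.28 in root (mean ± SD, n = 3). Its fitted log2 fold change was -3.16 in root against leaf (SE 0.72, adjusted p = 0.0128 from limma, n = 3 samples each). It was -2.18 without root replicate 2 (adjusted p = 0.00552 from limma). The call was lost with no filter on low values (adjusted p = 0.439) and with quantile normalization (log2 fold change -1.86, adjusted p = 0.123). The differences of stem against leaf (log2 fold change -0.79, adjusted p = 0.586) and of root against stem (-2.38, adjusted p = 0.185) did not pass in limma.

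The other 149 members, ranks 2 to 150, together held less in leaf than in both other organs. With PB.225.272 left out of the members and of the sum, they held 26.1%, 20.2% and 20.5% of root replicates 1, 2 and 3. They held 22.5%, 24.8% and 22.3% of the stem samples, and 15.0%, 15.4% and 14.5% of the leaf samples. No leaf sample overlapped with a root or stem sample. By organ, root had 22.3% ± 3.35, stem 23.2% ± 1.39 and leaf 15.0% ± 0.476 (mean ± SD, n = 3), so root and stem overlapped. Between leaf and each other organ, the mean shares of rank 1 and of the ranks after it thus differed in opposite directions. For rank 1, however, stem replicate 1 (8.11%) overlapped with the leaf samples, so only root and leaf were apart in both. Between root and stem the mean shares did not differ in opposite directions: rank 1 had a higher share in stem, and the ranks after it overlapped.

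Each group of ranks after the first had its lowest mean share in leaf, and in ranks 51 to 150 the leaf samples lay apart from all others. The 100 members of ranks 51 to 150 held 8.52%, 8.55% and 8.43% of the summed RPKM in the 3 root samples. They held 7.67%, 8.37% and 8.55% in the 3 stem samples, and 4.75%, 4.75% and 4.77% in the 3 leaf samples. The leaf replicates lay close together, and the leaf mean, 4.76%, lay 3.74 points under the root mean of 8.50% and 3.44 points under the stem mean of 8.20%. Ranks 11 to 50 held 8.40% ± 1.11 in root, 7.44% ± 0.541 in stem and 5.53% ± 0.178 in leaf. Ranks 2 to 10 held 5.02% ± 2.10, 6.38% ± 1.28 and 3.48% ± 0.330 in root, stem and leaf, and here root overlapped with leaf.

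**Figure D2:**
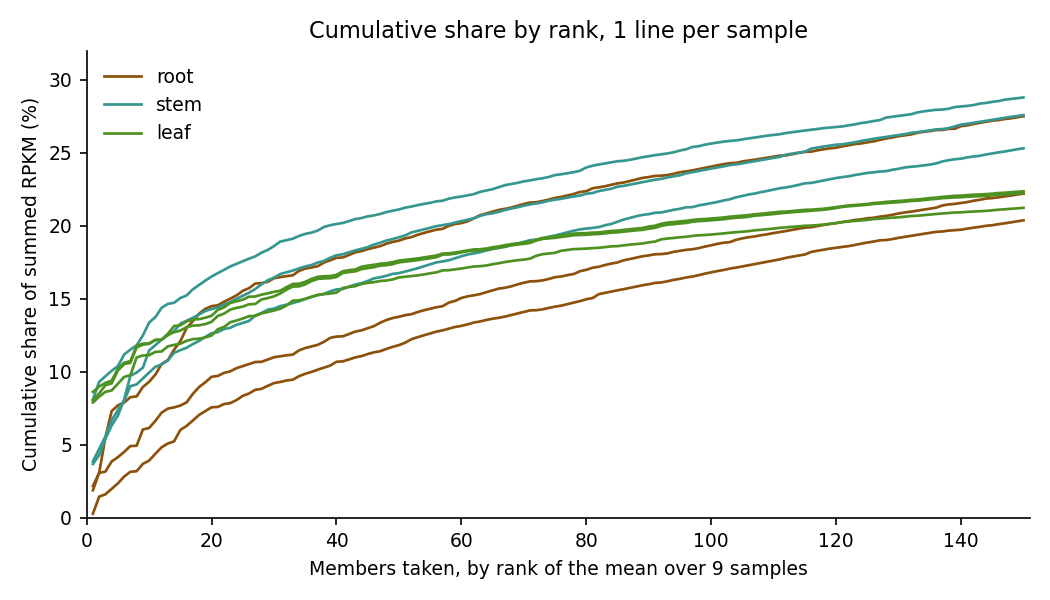
Cumulative share of the summed RPKM (vertical axis, percent) as members are added by rank (horizontal axis), with 1 line for each of the 9 samples, coloured by organ. The leaf lines start between 7.90% and 8.62% at the first member, a range that also holds 1 stem sample (8.11%), and flatten to end between 21.2% and 22.4%, while the root lines start at or under 2.18% and the stem lines end between 25.3% and 28.8%, with root replicate 1 among them.

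The concentration within the list can be given as an effective number, the count of equally abundant members that would give the same concentration (the inverse of the summed squared shares). It was 38.1, 74.3 and 46.0 in root replicates 1, 2 and 3. In stem replicates 1, 2 and 3 it was 11.5, 31.0 and 28.9, and in the leaf samples it was 6.40, 7.16 and 6.84. The leaf samples were lowest, stem lay between, and no organ overlapped with another. Squared shares give the most weight to the highest members. PB.225.272 alone made up a mean of 37.3% of what the members held in leaf, 18.9% in stem and 6.01% in root. The effective number was not computed without it. Root replicate 2, in which PB.225.272 took only 0.280% of the summed RPKM and ranked 20 among all unigenes, had the most even spread.

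Being high in all organs is not the same as being highest in each. Of the 150 highest unigenes of root by organ mean, 104 were members, of those of stem 110, and of those of leaf 47. The 103 unigenes in the leaf list that were not members included 99 that fell under 100 RPKM in at least 1 sample, against 42 of 46 in the root list and 39 of 40 in the stem list. The highest 150 of leaf held 37.5% ± 1.27 of the leaf summed RPKM, of which their members held 17.7% ± 0.614. In root the corresponding shares were 28.3% ± 4.56 and 20.7% ± 3.89, and in stem 30.2% ± 1.59 and 24.7% ± 1.91 (mean ± SD, n = 3). The median rank of a member among all unigenes of a sample ran from 224.5 to 234.5 in leaf, and from 103.5 to 140 in the root and stem samples. As drawn, the list thus held more of the highest unigenes of root and stem than of leaf.

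The order of the organs depended on this minimum. When the 150 highest unigenes were taken by mean with no minimum, 87 of them were members. That list held 24.3% ± 3.80 of root, 28.4% ± 1.87 of stem and 32.5% ± 1.01 of leaf (mean ± SD, n = 3). Leaf was then the highest organ, and its 3 samples, from 31.5% to 33.6%, lay above all others. Of the 63 unigenes that the minimum removed from this list, 40 had their highest organ mean in leaf, and 48 were under 100 RPKM in at least 1 root sample. With a minimum of 50 RPKM the leaf share was 25.4%, between root at 23.4% and stem at 27.8%. With 200 RPKM it was 21.6%, beside 21.9% in root and 24.9% in stem.

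The choice of the list on the same samples had a smaller effect. When the list was chosen on the samples of the other 2 replicate numbers and read in the samples left out, 139 to 142 of its 150 unigenes were members. The shares were 22.8% ± 3.83 in root, 26.7% ± 1.73 in stem and 22.6% ± 0.288 in leaf, and every stem sample was still above every leaf sample.

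Differences between organs were tested unigene by unigene over 50225 unigenes, those with 3 or more samples above 0.1 RPKM, and all 150 members were among them. A unigene was called when limma gave a Benjamini-Hochberg adjusted p under 0.05 over all unigenes tested and the fitted change on the log2(RPKM + 1) scale reached 1, a fold change of 2. The rule for the members used no organ labels, but its minimum keeps a member from falling under 100 RPKM anywhere. In the comparisons with leaf, the members were called more often than all unigenes, through calls higher in root or stem and not calls lower there. These rates are not independent of the rule, since the members were chosen by level on the same values. A unigene needed only 3 samples above 0.1 RPKM to be tested. Both comparisons with leaf use the same leaf samples and are not independent of each other. Of the 150 members, 71 were called in at least 1 of the 3 comparisons, and that share of all tested unigenes was not counted. The other 79 were called in none, yet their highest organ mean was a median of 1.65 times their lowest, and in 12 of them it was at least 2 times. Of the summed RPKM, these 79 held 10.3% ± 1.83 (root), 10.2% ± 1.40 (stem) and 7.38% ± 0.513 (leaf).

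Between root and leaf, most members that changed were higher in root. Of the 150 members, 60 were called, 40.0%, where 17.0% of all tested unigenes were called. In root 47 members were higher, beside 8.25% of all tested unigenes, and 13 were lower, beside 8.79%. Of the other 428 unigenes at or above 100 RPKM in all samples, 77 were called (18.0%), 59 higher in root and 18 lower. With no limit on the fold change, 83 members passed, beside 23.4% of all tested unigenes. The median log2 fold change was 0.71 over the members, 0.29 over those 428 and 0.18 over all unigenes tested. All 3 root samples were above all 3 leaf samples in 94 members (28.9% of all tested unigenes) and below them in 24 (17.3%). The 100 members of ranks 51 to 150 held 32 of the calls higher in root and 3 of those lower, and the 10 highest members 4 and 2. With the samples brought to the same summed RPKM, 74 members were called, 63 higher in root and 11 lower. That was beside 5490 and 4015 of 50437 unigenes tested. Scaled on the summed RPKM of the unigenes outside the members, 77 were called, 67 higher and 10 lower, beside 5502 and 3927 of 50401. After median-ratio scaling of the samples, 39 members were called, 25 higher in root and 14 lower, beside 2813 and 5383 of 50313 unigenes tested. The median over the members was then 0.38 and that over all tested unigenes 0.03. The 428 changed direction under this scaling, with 21 called higher in root, 35 called lower and a median of -0.04. The direction among the members is no finding independent of the rule, since the minimum took out unigenes that were high in leaf and low in root, as counted above, and the calls for a list without the minimum were not tested.

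The largest rise in root among the members was that of PB.26859.37. It had 6982 RPKM, 4012 RPKM and 5275 RPKM in root replicates 1, 2 and 3, with 6176 RPKM, 4133 RPKM and 1787 RPKM in the 3 stem samples. In leaf replicates 1, 2 and 3 it had 167.1 RPKM, 159.1 RPKM and 315.3 RPKM, so every leaf sample was under every root and stem sample. Its log2 fold change was 4.69 in root against leaf (SE 0.47, adjusted p = 0.000125 from limma) and 4.13 in stem against leaf (adjusted p = 0.000458 from limma), with n = 3 samples each.

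PB.58642.2 followed with 4907 RPKM, 3446 RPKM and 4449 RPKM in root replicates 1, 2 and 3 and 322.8 RPKM, 274.4 RPKM and 308.1 RPKM in leaf replicates 1, 2 and 3. Its stem samples had 2920 RPKM, 2438 RPKM and 2289 RPKM, each under every root sample. The log2 fold change in root against leaf was 3.81 (SE 0.21, adjusted p = 5.37e-06 from limma, n = 3 samples each). Its leaf replicates lay close together, with an SD of 24.8 RPKM.

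The largest fall in root was that of PB.974.98, which had 488.4 RPKM, 342.5 RPKM and 227.4 RPKM in root replicates 1, 2 and 3. Stem replicates 1, 2 and 3 had 2832 RPKM, 2392 RPKM and 1334 RPKM, and leaf replicates 1, 2 and 3 had 10930.3 RPKM, 11445 RPKM and 13178 RPKM. The organs formed 3 steps without overlap, and this member had the widest gap of all 150 between organ means, 33.6 times from root to leaf. Its log2 fold change was -5.13 in root against leaf (SE 0.35, adjusted p = 1.50e-05 from limma, n = 3 samples each). PB.32513.24 took the same steps at a lower level, with organ means of 221.0 ± 49.5 RPKM in root, 572.7 ± 229.6 RPKM in stem and 2970.4 ± 427.1 RPKM in leaf (mean ± SD, n = 3). Its log2 fold change was -3.76 in root against leaf (SE 0.34, adjusted p = 7.10e-05 from limma). All calls in the comparison of root with leaf named in these paragraphs on rises and falls were kept under all 20 alternatives of the fit.

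**Figure D3:**
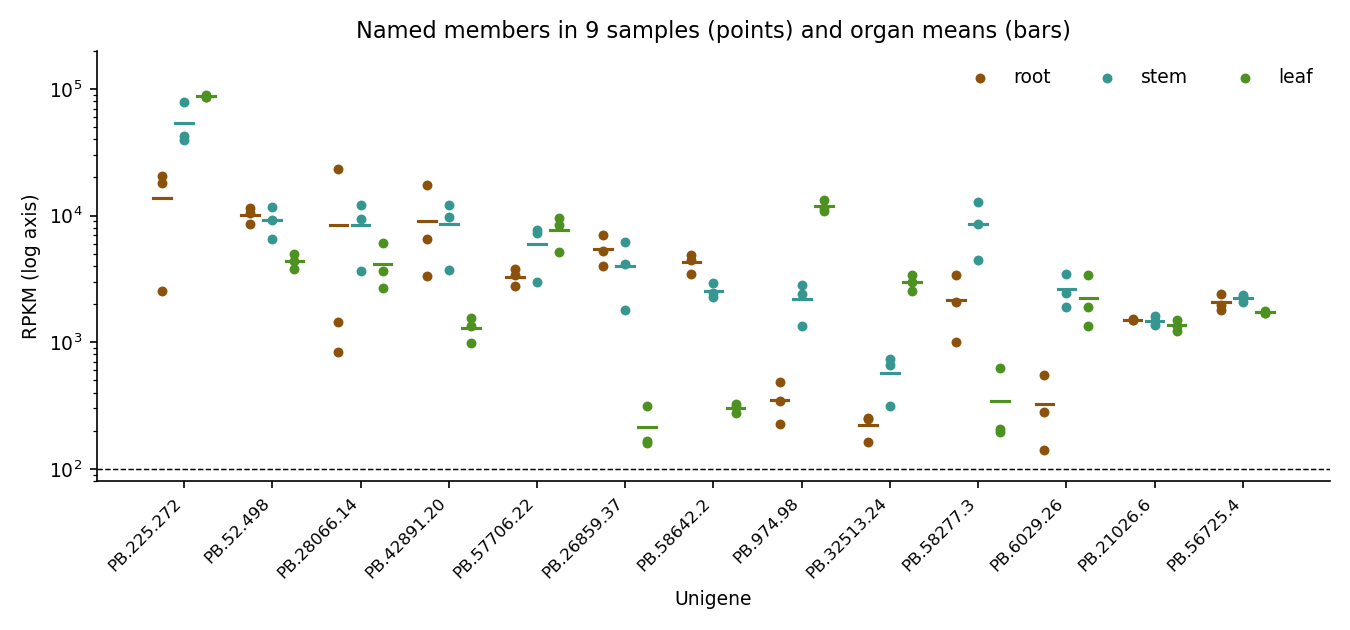
RPKM on a log axis of the 13 members named by rule in the 3 root, 3 stem and 3 leaf samples (points, coloured by organ), with a bar at each organ mean and a dashed line at the minimum of 100 RPKM. PB.974.98 climbs from root over stem to leaf without overlap, PB.26859.37 drops to between 159.1 and 315.3 RPKM in leaf, and the points of PB.21026.6 stay between 1216 and 1601 RPKM.

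Between stem and leaf, most members that changed were higher in stem, and here too the direction is no finding independent of the rule. Of the 63 unigenes that the minimum removed from the list by mean, 40 were highest in leaf and 7 in stem. In at least 1 stem sample 20 of the 63 were under 100 RPKM, and in at least 1 leaf sample 18. Of the 150 members, 61 were called, 40.7%, where 11.1% of all tested unigenes were called. In stem 53 members were higher, beside 4.30% of all tested unigenes, and 8 were lower, beside 6.77%. Of the other 428 unigenes at or above 100 RPKM, 69 were called (16.1%), 61 higher in stem and 8 lower. With no limit on the fold change, 75 members passed, beside 14.3% of all tested unigenes. The median log2 fold change was 0.85 over the members, 0.47 over those 428 and 0.05 over all unigenes tested. All 3 stem samples were above all 3 leaf samples in 95 members (16.7% of all tested unigenes) and below them in 14 (15.4%). With median-ratio scaling 37 members were called, 29 higher in stem and 8 lower, with a median over the members of 0.72.

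PB.58277.3 had the largest rise in stem against leaf. It had 8507 RPKM, 12740.4 RPKM and 4454 RPKM in stem replicates 1, 2 and 3. The 3 root samples had 3411 RPKM, 2067 RPKM and 998.9 RPKM, and the 3 leaf samples 208.0 RPKM, 631.3 RPKM and 195.1 RPKM. Stem was highest, root lay between and leaf was lowest, without overlap. Its log2 fold change in stem against leaf was 4.73 (SE 0.61, adjusted p = 0.000909 from limma, n = 3 samples each). The values of PB.26859.37, the second largest rise, are given with root against leaf above. The 2 largest falls in stem against leaf were again PB.974.98 (log2 fold change -2.50, SE 0.35, adjusted p = 0.00150) and PB.32513.24 (-2.46, SE 0.34, adjusted p = 0.00144), both from limma with n = 3 samples each.

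Root and stem differed least over the members. Of the 150 members, 6 were called, 4.0%, where 1.51% of all tested unigenes were called. All 6 were lower in root, beside 1.08% of all tested unigenes, and none was higher, beside 0.434%. The same 6 passed with no limit on the fold change, beside 1.68% of all tested unigenes. Of the other 428 unigenes at or above 100 RPKM, 4 were called (0.935%), 1 higher in root and 3 lower. At an unadjusted p under 0.05 and with the fold change limit, 13 members passed in limma, all lower in root. With sample weights 1 member was higher in root and 12 were lower. The median log2 fold change was -0.09 over the members, -0.17 over those 428 and 0.09 over all unigenes tested. The sign of the member median depended on the scaling: it was 0.07 with the samples brought to the same summed RPKM and -0.29 with median-ratio scaling. All 3 root samples were below all 3 stem samples in 14 members (6.28% of all tested unigenes) and above them in 3 (9.11%). Among the 428 they were below in 62 (14.5%, beside 9.33% of the members) and above in 10. The count of 6 calls rested on the fit, which left the replicate number out although it was taken to pair root with stem. With the replicate number as a block, 3 members were called, of which 2 were among the 6. With only the 6 root and stem samples, with or without the block, the count was 0. Without stem replicate 3 it was 7, and without stem replicate 2 only 1. It was 2 without root replicate 1, root replicate 2 or stem replicate 1, and 3 without root replicate 3 or any of the leaf samples.

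The largest fall in root against stem was that of PB.6029.26. It had 279.2 RPKM, 553.7 RPKM and 140.8 RPKM in root replicates 1, 2 and 3. The 3 stem samples had 2459 RPKM, 3461 RPKM and 1905 RPKM. Its leaf samples, at 1351 RPKM, 3402 RPKM and 1890.3 RPKM, overlapped with stem. The log2 fold change in root against stem was -3.18 (SE 0.52, adjusted p = 0.0192 from limma, n = 3 samples each). The call was kept under 15 of 21 alternatives. Among those that lost it, the adjusted p was 0.112 when leaf did not enter the fit, 0.0598 without root replicate 1, 0.0553 without stem replicate 1 and 0.0931 without stem replicate 2. The other named fall was PB.974.98 (log2 fold change -2.63, SE 0.35, adjusted p = 0.00812 from limma), with an adjusted p of 0.102 when leaf did not enter the fit.

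**Figure D4:**
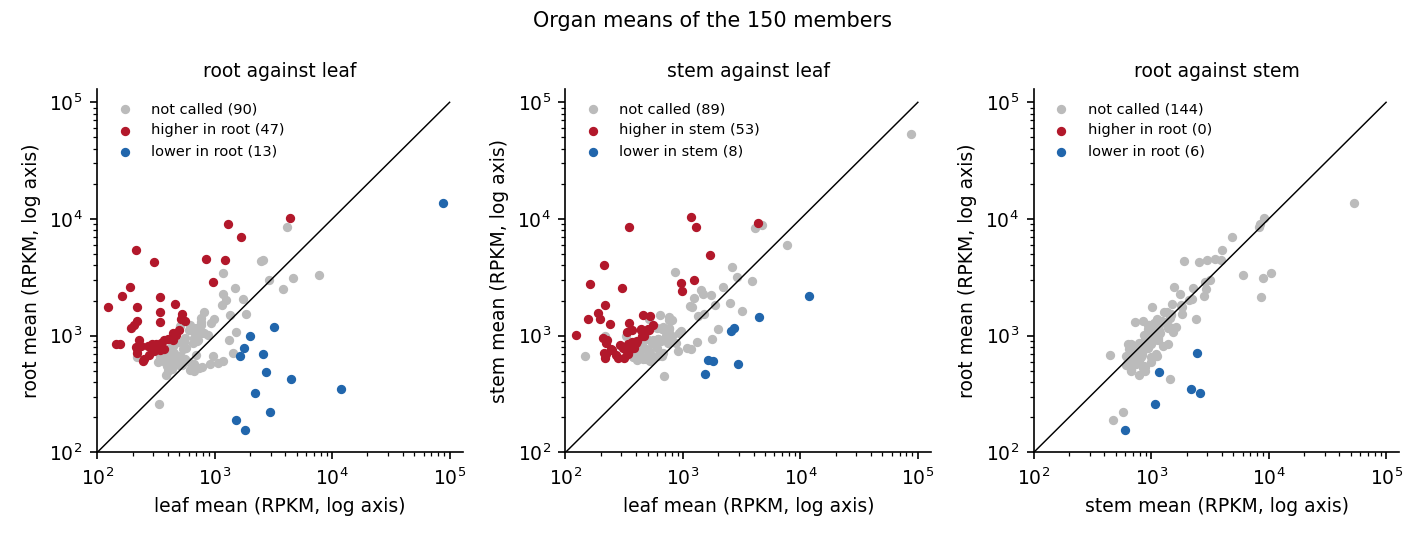
Organ means of the 150 members in RPKM on log axes, root against leaf, stem against leaf and root against stem, with members called higher in red, called lower in blue and not called in grey, and a line of equal values. The panels with leaf hold 47 and 53 red points above the line against 13 and 8 blue points below it, and the panel of root and stem holds 6 blue points and no red one.

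By organ mean, 76 members were highest in stem, 54 in root and 20 in leaf. The lowest organ mean was in leaf for 117 members, in root for 28 and in stem for 5. Stem lay between root and leaf in 69 members. The highest organ mean was less than 1.5 times the lowest in 26 members, at least 2 times in 83, at least 5 times in 24 and at least 10 times in 10. The median of this ratio was 2.07. Abundance in all organs thus went with a wide range of contrasts between them.

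The members of ranks 2 to 5 show how far the replicates of an organ could part. PB.52.498 had 11519 RPKM, 10512 RPKM and 8519.6 RPKM in root replicates 1, 2 and 3. It had 11746 RPKM, 6569 RPKM and 9256 RPKM in stem replicates 1, 2 and 3, and 3809 RPKM, 4954 RPKM and 4382 RPKM in leaf replicates 1, 2 and 3. Its leaf samples were all lower. In root against leaf the log2 fold change was 1.21 (SE 0.27, adjusted p = 0.0113 from limma, n = 3 samples each), a call lost under 3 of 20 alternatives, among them leaving out leaf replicate 1 (adjusted p = 0.0554). For stem against leaf it was 1.04 (adjusted p = 0.0329 from limma), a call lost under 12 of 20 alternatives. Leaving out root replicate 2, stem replicates 1 or 3 or any leaf sample was among the 12, with adjusted p between 0.0510 and 0.140. So was the fit with the replicate number as a block (adjusted p = 0.0521 from limma).

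PB.28066.14 had 23162 RPKM in root replicate 1 but 1457 RPKM and 837.4 RPKM in root replicates 2 and 3. Stem replicates 1, 2 and 3 had 3634 RPKM, 12013 RPKM and 9424 RPKM, and leaf replicates 1, 2 and 3 had 2691 RPKM, 6062 RPKM and 3655 RPKM. Root replicate 1 was the highest of the 9 samples and the other root samples were the lowest, so the organs overlapped and no comparison was called. The adjusted p values from limma were 0.845 in root against leaf, 0.688 in stem against leaf and 0.691 in root against stem.

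PB.42891.20 also had its highest value in root replicate 1, 17306 RPKM, with 3354 RPKM and 6562 RPKM in root replicates 2 and 3. Stem replicates 1, 2 and 3 had 3704 RPKM, 9800.0 RPKM and 12049.9 RPKM, and leaf replicates 1, 2 and 3 had 1557 RPKM, 1331 RPKM and 994.7 RPKM. Leaf was below both other organs in every sample. The log2 fold change was 2.51 in root against leaf (SE 0.62, adjusted p = 0.0180 from limma) and 2.58 in stem against leaf (adjusted p = 0.0229 from limma), with n = 3 samples each. The calls were lost under 4 and 7 of 20 alternatives, with the highest adjusted p at 0.0735 and 0.0929. Without leaf replicate 2 or 3 both were lost, and without stem replicates 2 or 3 or leaf replicate 1 that of stem against leaf.

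PB.57706.22 and PB.225.272 were those of the 5 highest members with their highest mean in leaf. PB.57706.22 had 3293 ± 502.4 RPKM in root, 6004 ± 2631 RPKM in stem and 7687 ± 2293 RPKM in leaf (mean ± SD, n = 3). All leaf samples were above all root samples, but in root against leaf its log2 fold change, -1.19, did not pass (adjusted p = 0.0639 from limma). It was called under 4 of 20 alternatives: quantile normalization, sample weights, leaving stem out of the fit, and leaving out stem replicate 1 (lowest adjusted p = 0.0131 from limma).

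Over all members the replicates were closest in leaf. The median SD of log2(RPKM + 1) between replicates was 0.12 in leaf, 0.25 in root and 0.42 in stem over the members, and 0.18, 0.30 and 0.37 over all unigenes tested. The leaf SD was the lowest of the 3 organs in 109 of the 150 members. The highest replicate was more than 2 times the lowest in 10 members in leaf, 38 in root and 50 in stem. The 10 most abundant members were more uneven than those of ranks 51 to 150, as a description only. A single high replicate raises both the mean that set the rank and the SD. Over ranks 1 to 10 the median SD was 0.22 in leaf, 0.62 in root and 0.67 in stem, and over ranks 51 to 150 it was 0.10, 0.20 and 0.42. The highest of a member's 9 values fell in stem replicate 3 for 54 members, more than in any other sample. Stem replicate 3 also had the highest summed RPKM, the lowest median-ratio factor (0.7496) and the lowest sample weight (0.2243) of the 9 samples. Whether this bears on the count was not tested. The lowest fell in leaf replicates 1 or 2 for 82 members, 39 and 43.

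**Figure D5:**
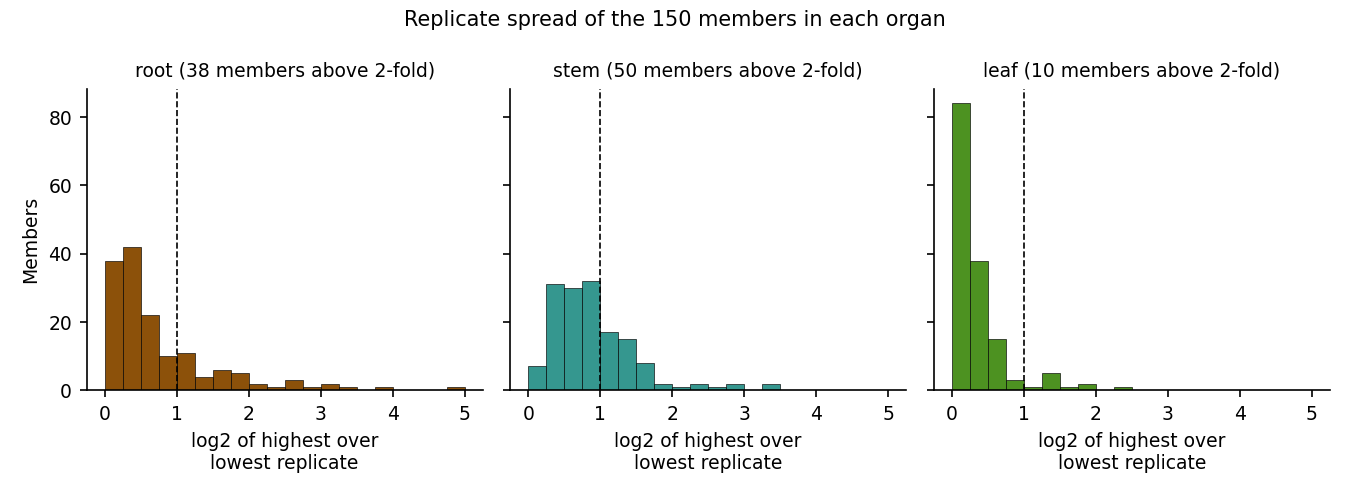
Histograms of the 150 members in root, stem and leaf by the log2 of the highest over the lowest of the 3 replicates (horizontal axis), with a dashed line at a ratio of 2. To the right of the line lie 38 members in root, 50 in stem and 10 in leaf.

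The 2 members with the smallest range over all 9 samples were PB.21026.6 and PB.56725.4. PB.21026.6 had 1513 RPKM, 1502 RPKM and 1492 RPKM in root replicates 1, 2 and 3. The 3 stem samples had 1365 RPKM, 1472 RPKM and 1601 RPKM, and the 3 leaf samples 1354 RPKM, 1495 RPKM and 1216 RPKM. The organs overlapped, and the highest value was 1.32 times the lowest. PB.56725.4 ran from 1711 RPKM in leaf replicate 2 to 2409 RPKM in root replicate 1, a ratio of 1.41, and its 3 leaf samples were its lowest. Picked for their small range, neither could reach the fold change of 2 that a call needs. Their adjusted p from limma, between 0.272 and 0.977, is no result apart from that choice. In all, 19 members stayed within a ratio of 2 over the 9 samples, and 27 spanned a ratio of 10 or more.

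Across the 150 members, pairs of samples were compared by the Pearson correlation of log2(RPKM + 1), as a description over unigenes that share a library and the same minimum. The 3 pairs of leaf samples had a mean of 0.961, the root pairs 0.747 and the stem pairs 0.758. The 9 pairs of root with stem had a mean of 0.672 and overlapped with the pairs within stem, running from 0.550 to 0.733 against 0.645 to 0.844. The pairs of stem with leaf had a mean of 0.517, and those of root with leaf 0.254, from 0.203 to 0.335. The log2 levels of the members were thus least correlated between root and leaf.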

How the data were processed

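The authors removed low-quality paired-end reads, mapped the clean reads with HISAT2 2.05 (as given in the submitters' processing notes) to the unigenes of their PacBio transcriptome of pooled B1 RNA, and estimated expression with RSEM. The deposited RPKM values, called FPKM in the methods, have 2 decimals, and the authors did not pool replicates. No genome build is involved. Since RSEM splits reads that match more than 1 unigene, the level of a unigene with a close copy is uncertain. Differential tests of the authors, made with DESeq, were not used.

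The 9 columns were assigned by the sample numbers in the labels. The members and the settings were chosen with earlier results of these data known. A member's share is its RPKM over the summed RPKM of all unigenes. Tests used limma 3.58.1 (R 4.3.3). The log2(RPKM + 1) values of 50225 unigenes, those with 3 or more samples above 0.1 RPKM, were fitted with organ as the factor, all 9 samples in 1 fit, an intensity trend and Benjamini-Hochberg adjustment over all unigenes tested. The added 1 RPKM hardly matters at the level of the members. The procedure was run on simulated data with noise independent between samples and with changes well over the limit, in root only. That setting holds no link between root and stem samples of the same number and no changes near a fold change of 2. It therefore does not test the calls under those conditions. Python 3.11.15 with numpy 2.4.6, pandas 2.3.3 and matplotlib 3.10.9 did the rest.

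Replicate numbers 1 to 3 occur in each organ, and the labels do not say what they mark. Deviations from the organ means over all unigenes tested correlated at 0.573 to 0.664 between root and stem samples of the same number. That is above the limit of 0.1, and between different numbers they correlated at -0.516 to 0.0437. The replicate numbers were therefore taken, from the values alone, to pair root with stem. The reported fit did not use this pairing and treated these samples as independent, with the replicate block as an alternative. With leaf the same-number correlations ran from 0.0259 to 0.352 for root and from -0.0297 to 0.333 for stem, and leaf was not taken as paired. Over the members alone, which did not decide the pairing, they were 0.118 to 0.289 for root with leaf, -0.207 to 0.360 for stem with leaf and 0.139 to 0.441 for root with stem.

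Named by rule were the 5 members with the highest mean, the 2 largest rises and 2 largest falls per comparison among called members whose replicates did not overlap, the 2 members with the smallest ratio of highest to lowest value, and the unigenes at the limits of the list. Alternatives were a pseudocount of 0.1, no filter, 3 scalings, quantile normalization, sample weights, no trend, a replicate block, 6 samples only, no fold change limit, leaving out each sample, and other ways to choose the list. The fit to 6 samples with the block was added after seeing the data.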

Additional observations from a re-analysis of the deposited data

How the results depend on the processing

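In root against leaf, the 60 calls among the members varied by less than 1.5 times under 19 of 20 alternatives, and numbered 52 to 62 when single samples were left out and 39 with median-ratio scaling. In stem against leaf the 61 calls did so under 19 of 20 as well, at 44 to 67 with single samples left out, and numbered 37 with median-ratio scaling. The 6 calls in root against stem varied most. Their number was 1 with no filter, 2 with equal summed RPKM, 3 with quantile normalization, 13 with sample weights and 3 with the replicate block. It was 0 with only the 6 samples compared, with the replicate block (added after seeing the data) or without it, and in either of these limma fits 12 members reached an unadjusted p under 0.05 together with the fold change. With single samples left out it was 1 to 7. The block changed the counts with leaf only to 59 for root and 63 for stem, and among the named members it lost only the call of PB.52.498 in stem against leaf.

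The shares of 23.4% in root, 27.2% in stem and 22.0% in leaf moved beyond the SD between replicates as follows. With 100 members stem held 23.7% and leaf 20.1%, and with 200 members 29.8% and 23.9%. A minimum of 50 RPKM gave 25.4% in leaf, one of 200 RPKM gave 24.9% in stem, and no minimum gave 32.5% in leaf. Ranking by the lowest value gave 24.1% in stem and 20.2% in leaf. The list chosen on the other replicate numbers gave 22.6% in leaf. Without the highest unigene stem held 23.2% and leaf 15.0%, and without the 10 highest members root held 18.1%, stem 17.7% and leaf 11.6%. Leaving out single replicates gave 21.3% to 24.9% in root, 26.5% to 28.2% in stem and 21.7% to 22.3% in leaf. Of 31 fitted changes of named members, none reversed a call, and 36 of 629 alternative values lost one and 4 gained one. The causes were not tested. Without read counts, the precision that depth gives is not stated.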

Other observations

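Each unigene ID ends in a number. In the usual naming of PacBio isoforms, this number labels an isoform of a locus, though the sources used here do not describe it. It has no part in the RPKM values or in the choice of the members. Its median was 6 over the 150 members, 3 over the other 428 unigenes at or above 100 RPKM in all samples, and 1 over all 61856 unigenes. It was above 1 in 127 of the 150 members (84.7%) and in 29.4% of all unigenes, and at least 10 in 54 members (36.0%) and in 3.13% of all unigenes. Among the 10 highest members it was at least 10 in 9. The isoforms come from long reads of pooled B1 RNA, and the part of abundance in this number was not tested.

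A few members, chosen after their values were seen for their wide replicate spread, were high in single replicates of more than 1 organ. PB.56664.1 had 1413 RPKM in root replicate 3 and 1499.9 RPKM in stem replicate 3, against 104.5 RPKM to 228.9 RPKM in the other root and stem samples and 368.8 RPKM to 553.8 RPKM in leaf. PB.51479.12 had its highest value of each organ in replicate 2, with 1569 RPKM in root, 2214 RPKM in stem and 385.3 RPKM in leaf, against 111.7 RPKM to 484.3 RPKM in the other 6 samples. Other members with a wide spread did not keep to 1 number. PB.28066.14 was highest in replicate 1 of root but in replicate 2 of stem and leaf. PB.8275.12 was highest in replicate 1 of root and leaf but in replicate 3 of stem. How many members kept to 1 number was not counted. Neither the labels nor the study's tables say what a replicate number marks.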
